A study of Mus musculus with 30 samples.

Results

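The comparison described here is that of astrocytes taken 7 days after a stroke model with astrocytes taken 7 days after sham surgery, 6 of the 30 arrays of the study. The stroke group has 3 arrays from middle cerebral artery occlusion (MCAO), in which the artery is closed for 1 h before blood flow returns, and the sham group has 3 arrays from surgery without the occlusion. Both groups were young adult male mice of the line Tg(Aldh1l1-eGFP) OFC789Gsat on a Swiss Webster background, so controls carried the transgene too. In that line the regulatory region of Aldh1l1, a folate enzyme gene of astrocytes, drives green fluorescent protein from a bacterial artificial chromosome. Brains were dissociated with papain, green cells were sorted, and about 20 ng of RNA was amplified in a 2-cycle protocol for an Affymetrix expression array. The samples were selected by their labels alone. The labels call the arrays biological replicates but do not say that each is a separate mouse, or whether tissue was taken from the injured hemisphere alone, so p-values measure only the spread between these samples. The other groups used for comparison were MCAO and sham at 1 day (5 and 4 arrays) and at 3 days (3 and 3 arrays).

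Astrocytes buffer ions and transmitters, feed neurons and contact vessels. After ischemia those near the lesion enlarge, fill with the intermediate filament proteins GFAP and vimentin, release chemokines and complement regulators, and in the following days build a border of processes and matrix around the dead tissue. This state is called reactive. Its gene programme has parts driven by interferons, by interleukin-6-type cytokines acting through STAT3, and by NF-kappaB.

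Values are log2 of the deposited intensity of 1 probe set per gene, so levels can be compared between arrays for 1 gene but not between genes. The 6 arrays had median intensities of 70 to 72 over all probe sets on the linear scale. Over all genes, correlations were 0.982 to 0.988 between MCAO arrays, 0.986 to 0.992 between sham arrays and 0.975 to 0.991 across the groups. The sorted cells carried astrocyte markers at like levels in both groups: Aldh1l1, whose promoter drives the reporter, was at 12.32, 12.50 and 12.52 on the MCAO arrays, against 12.40, 12.39 and 12.36 on the sham arrays, and the mean log2 level of 29 homeostatic astrocyte genes was 12.89 to 12.98 on the MCAO arrays and 12.90 to 13.01 on the sham arrays. Of the immune cell markers, the first-listed genes of neutrophils and of microglia were below log2 5 on each of these arrays, though not all markers of either list were. S100a8, of neutrophils, was at 4.39, 4.52 and 4.52 on the MCAO arrays, against 4.75, 4.64 and 4.64 on the sham arrays. Aif1, of microglia, was at 4.81, 4.81 and 4.70 on the MCAO arrays, against 4.70, 4.86 and 4.95 on the sham arrays. Laptm5, of the microglia and macrophage list, was at 9.95, 10.16 and 9.67 on the MCAO arrays, against 10.15, 10.96 and 10.25 on the sham arrays. Ccr2, of the neutrophil and monocyte list, was at 7.47, 7.27 and 7.55 on the MCAO arrays, against 6.91, 7.07 and 6.87 on the sham arrays. Mbp, a myelin protein gene of oligodendrocytes, was bright in both groups, at 11.77, 11.49 and 12.05 on the MCAO arrays, against 11.65, 10.62 and 11.36 on the sham arrays.

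At 7 days after the occlusion the called differences from sham were almost all upward. Of 15726 genes tested, 205 were called at an adjusted p under 0.05 (1.30% of genes), 203 of them higher in MCAO (1.29%) and 2 lower (0.0127%). At least 2-fold differences made up 150 of the higher calls (0.954%) and 1 of the lower (0.00636%). Differences of the higher genes spanned 0.63 to 4.08 log2 with a median of 1.34, and the median over all genes was -0.01. In each of these 205 genes the 3 MCAO arrays did not overlap the 3 sham arrays, and 16.3% of all genes had no overlap. The genes with the largest rises were a lipid receptor, chemokines, an adhesion molecule, filament and calcium-binding proteins, and enzymes that modify matrix. The test was limma on these 6 arrays alone, a choice made on measured values: their spread was known to be smaller than in other groups. The median standard error of the difference was 0.142 with the 6 arrays and 0.275 with the variance of all 30. When the variance was pooled over all 30 arrays of the study, 4 genes were called (0.0254%), Matn4, Serpina3n, Rgs16 and C1ql1. Leaving out MCAO array 2 gave 126 calls, of which 120 were among the 205, and leaving out MCAO array 3 gave 113, of which 96 were. The fit lacking sham array 2 called 35 genes and that lacking sham array 3 called 24, all among the 205. Dropping array 1 of the MCAO or of the sham group gave 163 and 149 calls. At an unadjusted p under 0.05 there were 1206 higher genes (7.67%) and 515 lower genes (3.27%).

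**Figure D1:**
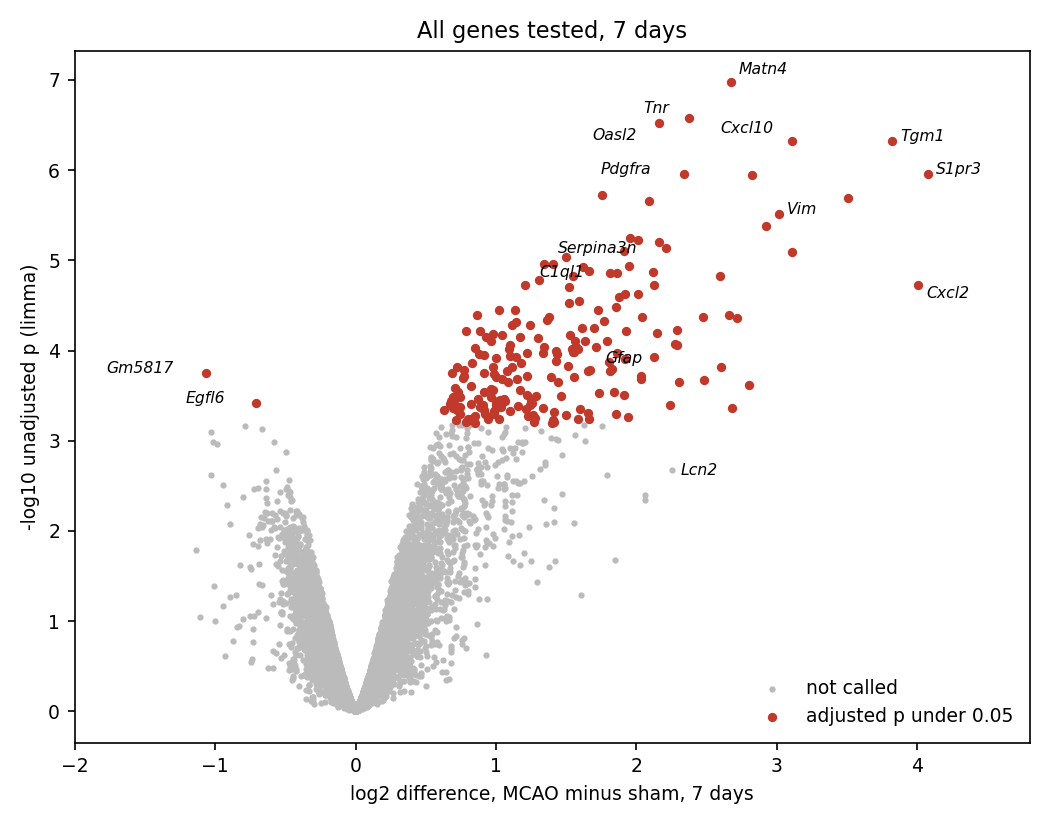
Each point is 1 of 15726 genes, with the log2 difference of MCAO minus sham at 7 days on the x axis and -log10 of limma's unadjusted p on the y axis. The 205 genes at an adjusted p under 0.05 are red, and 203 of them lie to the right of 0.

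S1pr3, a receptor for sphingosine-1-phosphate, had log2 intensities of 10.84, 12.20 and 11.43 on the MCAO arrays, against 7.62, 7.10 and 7.52 on the sham arrays. Its lowest MCAO array stood well above its highest sham array, and its difference was the largest of all called genes at 4.08 ± 0.32 (SE), adjusted p = 0.00223, or 16.9-fold. Averaging all its probe sets gave 2.44, still called, and one without a shared-sequence mark 2.87. Tgm1, a transglutaminase that crosslinks proteins, was at 9.05, 10.23 and 9.82 on the MCAO arrays, against 5.78, 5.93 and 5.93 on the sham arrays (3.82 ± 0.27 (SE), adjusted p = 0.0015). Icam1, the adhesion molecule that binds leukocyte integrins, was at 7.73, 9.06 and 8.57 on the MCAO arrays, against 5.0, 5.04 and 4.81 on the sham arrays (3.50 ± 0.29 (SE), adjusted p = 0.00316). Its sham level was close to the floor of log2 5 used to keep genes, and its MCAO arrays were all well above. Cd109, a membrane protein that binds transforming growth factor beta, differed by 3.11 ± 0.31 (SE), adjusted p = 0.00671, and Tnfaip3, the A20 enzyme that dampens NF-kappaB signalling, by 2.92 ± 0.27 (SE), adjusted p = 0.00507. With all probe sets averaged the differences were 2.45 and 1.58, both still called.

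Several of the largest rises were matrix genes. Matn4, which encodes the matrix protein matrilin-4, was at 8.64, 9.04 and 8.52 on the MCAO arrays, against 6.11, 5.98 and 6.11 on the sham arrays. Both groups were tight, and the difference of 2.67 ± 0.15 (SE), adjusted p = 0.0015 had one of the smallest p-values of the comparison. It was called in all 6 fits that left out an array and in the fit of 30 arrays. Sulf1 and Sulf2, which remove sulfate groups from heparan sulfate chains outside the cell, differed by 2.80 (adjusted p = 0.0293) and 2.71 (adjusted p = 0.0139). For Sulf2 this rested on the choice of probe set: one without a shared-sequence mark gave 0.00052 with an adjusted p of 1. For Sulf1, sham array 1 stood well above the other sham arrays (7.51, 5.58 and 6.30), and 1 of the 6 leave-one-out fits called it. With all probe sets averaged, Sulf1 differed by 1.84 and Sulf2 by 1.72, both called. Igfbp3, a binding protein of insulin-like growth factors, had 7.48, 8.98 and 7.45 on the MCAO arrays and 5.70, 5.36 and 5.04 on the sham arrays (2.61 ± 0.39 (SE), adjusted p = 0.023). MCAO array 2 was the highest by a wide margin, and a probe set without a shared-sequence mark gave 3.74.

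**Figure D2:**
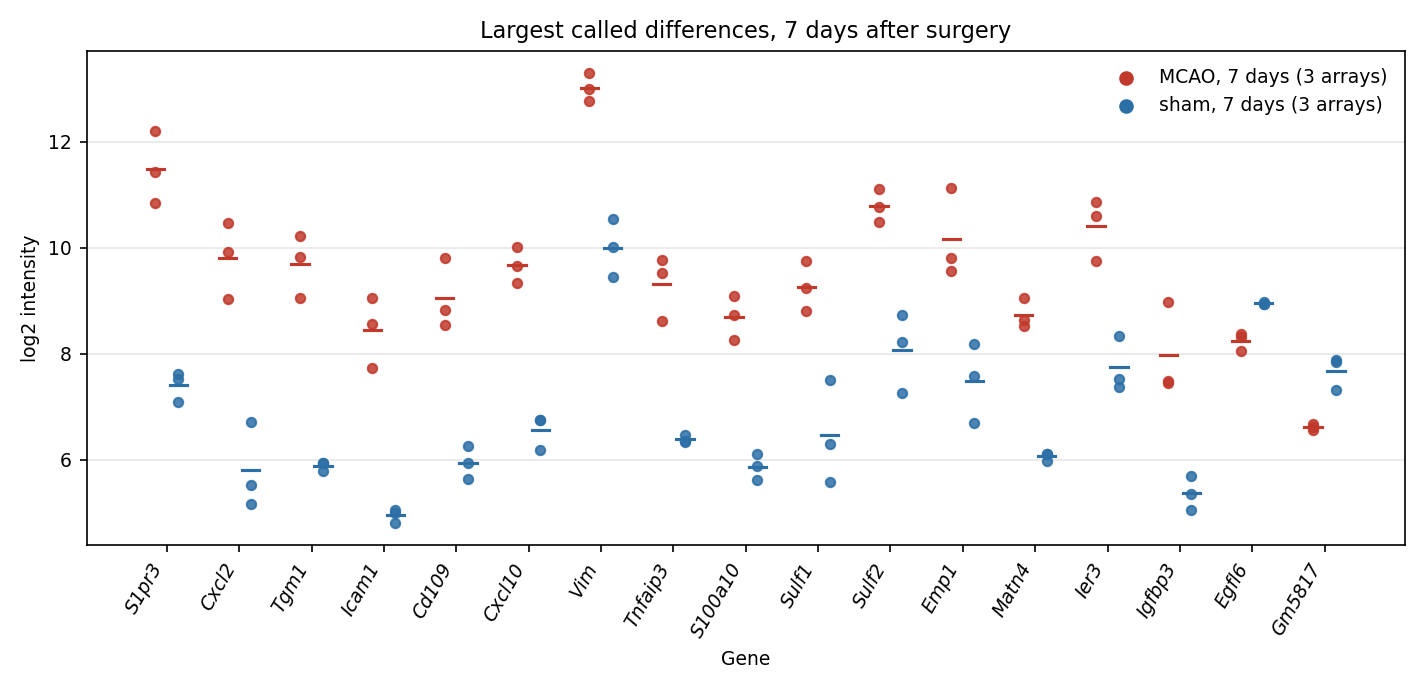
Log2 intensity (y axis) of the 15 genes with the largest called rises and the 2 genes called lower (x axis), with 1 dot per array and a bar at the mean of 3 arrays, MCAO in red and sham in blue. In each gene the red and blue dots do not overlap. Sham arrays spread widely for Cxcl2, Vim and Sulf1, and MCAO array 2 is high for S1pr3, Emp1 and Igfbp3.

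The lower calls were Gm5817, a predicted gene, at 6.67, 6.61 and 6.57 on the MCAO arrays, against 7.32, 7.88 and 7.85 on the sham arrays (-1.06 ± 0.16 (SE), adjusted p = 0.0243), and Egfl6, a secreted protein with epidermal growth factor-like repeats, at 8.37, 8.31 and 8.06 on the MCAO arrays, against 8.94, 8.98 and 8.93 on the sham arrays (-0.71 ± 0.12 (SE), adjusted p = 0.0382). Egfl6 lost its call in each of the 6 leave-one-out fits and Gm5817 in all but 1.

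Genes that mark reactive astrocytes were among the calls. Of 13 pan-reactive genes, a list of genes raised after both stroke and lipopolysaccharide, 9 rose and 4 were not called, with a median of 2.14. The list was chosen with samples of this series, whose lipopolysaccharide arrays are all of 1 day, so its direction is not independent evidence. Vim was at 12.76, 12.996 and 13.29 on the MCAO arrays, against 10.55, 9.45 and 10.01 on the sham arrays (3.01 ± 0.27 (SE), adjusted p = 0.00406), and Gfap at 12.35, 13.23 and 12.98 on the MCAO arrays, against 11.15, 11.41 and 10.84 on the sham arrays (1.72 ± 0.24 (SE), adjusted p = 0.0185). Both filament genes were bright in sham astrocytes already, and their MCAO arrays lay wholly above. For Gfap the probe set used may match more than 1 transcript form, and another without that mark gave 2.45. Gfap kept its call in 3 of 6 leave-one-out fits and Vim in all 6. Serpina3n, a secreted protease inhibitor, was at 10.94, 11.84 and 11.69 on the MCAO arrays, against 9.24, 9.27 and 9.32 on the sham arrays, with the sham arrays almost equal (2.21 ± 0.22 (SE), adjusted p = 0.00671). Lcn2, the iron-carrier-binding protein lipocalin-2, was at 5.75, 7.36 and 8.16 on the MCAO arrays, against 4.91, 4.81 and 4.81 on the sham arrays. Its 3 MCAO arrays were all above sham but far apart, and its difference of 2.25 ± 0.51 (SE), adjusted p = 0.106 was not called. Aspg (1.35), Steap4 (0.92) and Cp (0.92) were the others not called.

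Both sets tied to a single injury had called members. They too were chosen with samples of this series, so their directions are not independent evidence. Of 12 genes tied to stroke (MCAO-type, A2), 6 rose, with a median of 2.09. They were Tgm1 (3.82), Cd109 (3.11), S100a10 (2.82), Emp1 (2.68), Ptgs2 (2.30) and Cd14 (2.13). Ptgs2 makes prostaglandins, Cd14 is a co-receptor for lipopolysaccharide, and S100a10 is a partner of annexin A2. Emp1, a membrane protein, was called in 1 of 6 leave-one-out fits and was not called with all probe sets averaged (1.33, adjusted p = 0.0776). Of the 6 not called, Tm4sf1 was at 8.46, 9.33 and 8.56 on the MCAO arrays, against 7.99, 5.61 and 6.55 on the sham arrays (adjusted p = 0.159). Of 9 genes tied to lipopolysaccharide (A1), 4 rose, with a median of 1.59: Gbp2 (2.01), Iigp1 (1.96), Psmb8 (1.62) and Serping1 (1.59). All 4 stand in the interferon, antigen presentation or complement lists too. H2-D1, a class I histocompatibility gene, was at 11.64, 11.49 and 11.14 on the MCAO arrays, against 7.95, 9.90 and 10.23 on the sham arrays, a difference of 2.06 that was not called (adjusted p = 0.146). Sham array 1 stood far below the other sham arrays. No test compared the lists.

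**Figure D3:**
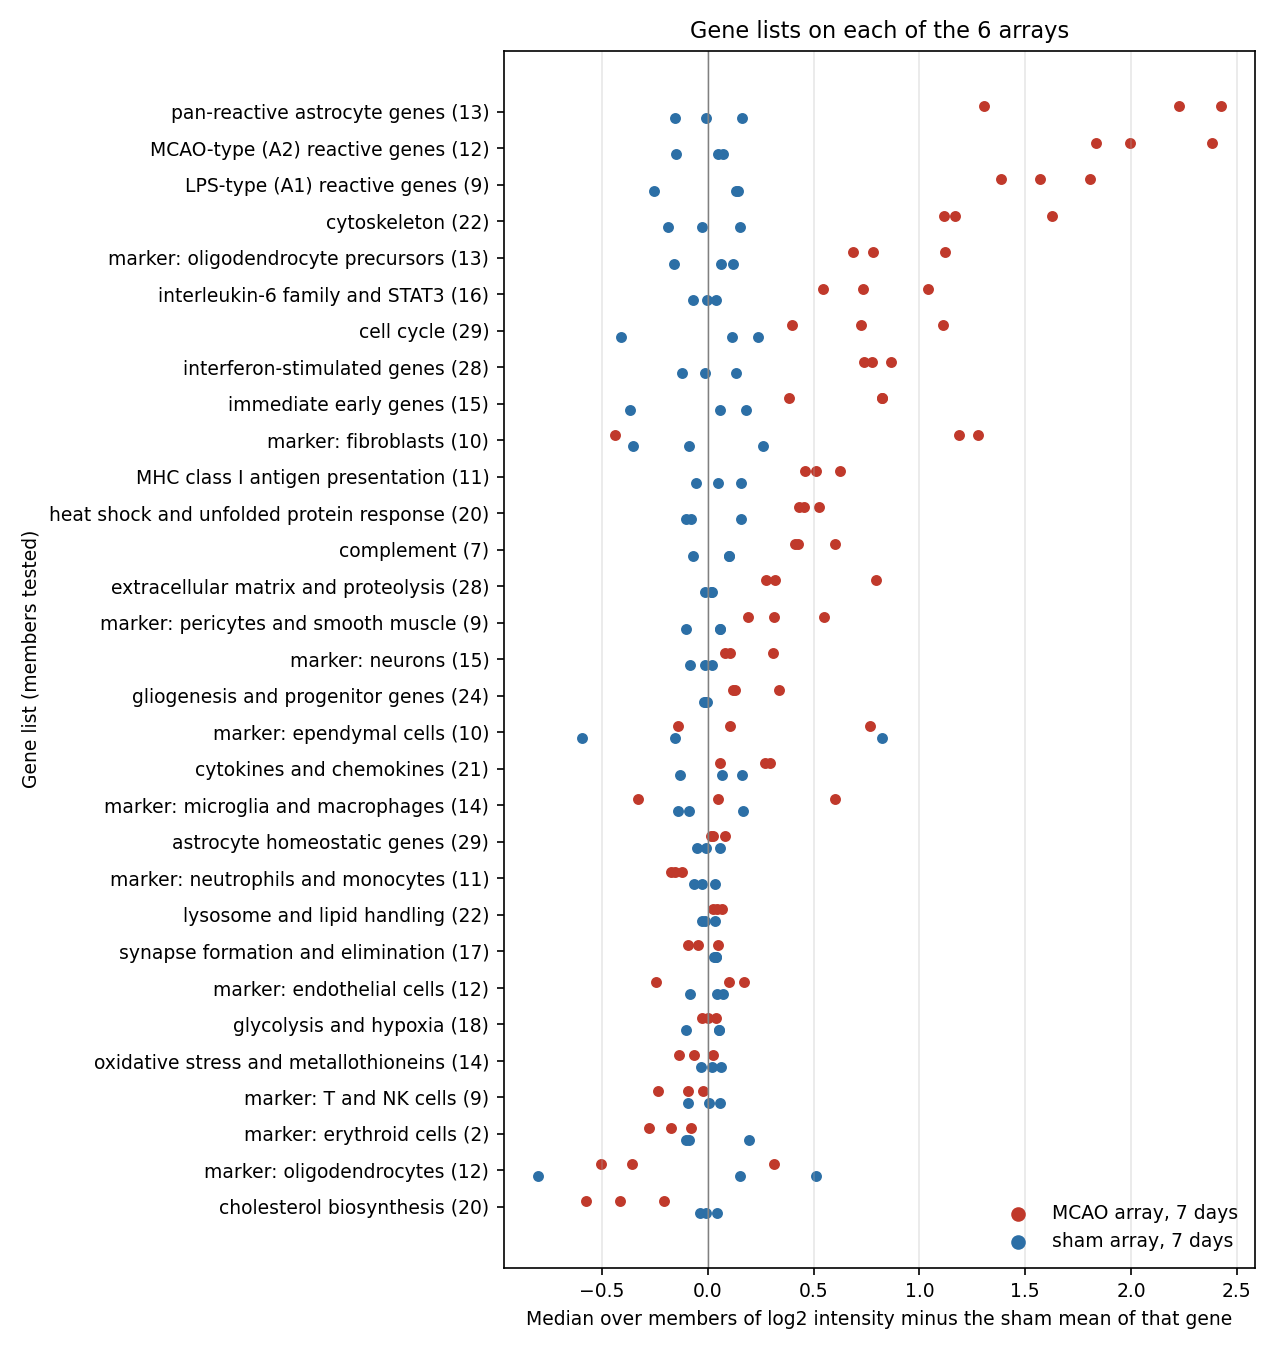
Each row is a gene list with its number of tested members in brackets, and each point is 1 array, placed at the median over members of the log2 intensity minus the sham mean of that gene (x axis). MCAO arrays are red and above, sham arrays blue and below. The reactive, cytoskeleton, oligodendrocyte precursor, interferon and antigen presentation lists have all 3 MCAO arrays to the right of all 3 sham arrays. So do the interleukin-6, complement, matrix, cell cycle, gliogenesis, heat shock, immediate early, neuron, and pericyte and smooth muscle lists. The cholesterol biosynthesis list and the neutrophil and monocyte list have all 3 to the left.

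Among 21 cytokine and chemokine genes, 5 rose, against 1.29% of all genes, and the median was 0.16. Cxcl2 and Cxcl1 encode chemokines that draw neutrophils, Cxcl10 is an interferon-inducible chemokine for T cells, and Ccl2 draws monocytes. Cxcl2 was at 9.03, 10.46 and 9.92 on the MCAO arrays, against 6.71, 5.52 and 5.17 on the sham arrays (4.0 ± 0.45 (SE), adjusted p = 0.00879). Sham array 1 was higher than the other 2 and the lowest MCAO array was still far above it. Cxcl10 was at 9.34, 10.02 and 9.66 on the MCAO arrays, against 6.75, 6.19 and 6.75 on the sham arrays (3.10 ± 0.22 (SE), adjusted p = 0.0015). Cxcl1 was at 11.41, 12.30 and 11.94 on the MCAO arrays, against 9.82, 9.67 and 9.69 on the sham arrays (2.16 ± 0.21 (SE), adjusted p = 0.00616), and a probe set without a shared-sequence mark gave 2.89. Ccl2 was at 7.30, 8.23 and 7.31 on the MCAO arrays, against 5.98, 5.43 and 5.86 on the sham arrays (1.86 ± 0.27 (SE), adjusted p = 0.0191). The fifth was Lif, a cytokine of the interleukin-6 family, at 7.54, 7.91 and 7.64 on the MCAO arrays, against 6.44, 6.79 and 6.91 on the sham arrays (0.98 ± 0.16 (SE), adjusted p = 0.0322). Il6 was at 5.32, 6.25 and 5.36 on the MCAO arrays, against 4.39, 4.46 and 4.52 on the sham arrays, a difference of 1.18 that was not called (adjusted p = 0.0672). Genes of cytokines made mainly by microglia and leukocytes were not called, among them Il1b (-0.11), Tnf (-0.01), Ccl3 (0.04), Ccl4 (0.13) and Ccl5 (0.16).

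Promoters of 3 called chemokine genes are shown because these genes rose and each holds a motif of the same factor, with an interferon-stimulated gene and Gfap beside them. RefSeq (GRCm38.p6) sequence from 250 bases before to 50 bases after the first listed start of each gene was searched on both strands for the kappaB consensus, bound by NF-kappaB, for the core of the interferon-stimulated response element (ISRE), which is GAAA given 2 times with 2 free bases between, and for TTCNNNGAA, the palindrome bound by STAT factors. The promoters printed were chosen after values and motifs had been seen. They run 5′ to 3′ on the strand of the gene, and capitals mark every match to the 3 motifs; matches on both strands or shifted by a base run together. They lie at chr5:90903649-90903948, plus strand (Cxcl2), chr5:90890995-90891294, plus strand (Cxcl1), chr5:92348840-92349139, minus strand (Cxcl10), chr19:34583279-34583578, plus strand (Ifit3, an interferon-stimulated gene) and chr11:102897151-102897450, minus strand (Gfap).
Cxcl2: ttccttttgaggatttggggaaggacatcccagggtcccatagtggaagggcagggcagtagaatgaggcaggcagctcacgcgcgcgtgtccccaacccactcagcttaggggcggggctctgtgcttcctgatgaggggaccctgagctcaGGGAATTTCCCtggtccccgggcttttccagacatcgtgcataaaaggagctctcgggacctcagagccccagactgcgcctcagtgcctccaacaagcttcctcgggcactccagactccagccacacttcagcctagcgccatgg
Cxcl1: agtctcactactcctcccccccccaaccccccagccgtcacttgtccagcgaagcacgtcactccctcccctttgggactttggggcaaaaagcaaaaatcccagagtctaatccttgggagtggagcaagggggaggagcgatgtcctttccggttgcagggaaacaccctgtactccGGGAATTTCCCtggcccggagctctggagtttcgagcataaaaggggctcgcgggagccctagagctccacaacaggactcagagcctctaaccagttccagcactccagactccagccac
Cxcl10: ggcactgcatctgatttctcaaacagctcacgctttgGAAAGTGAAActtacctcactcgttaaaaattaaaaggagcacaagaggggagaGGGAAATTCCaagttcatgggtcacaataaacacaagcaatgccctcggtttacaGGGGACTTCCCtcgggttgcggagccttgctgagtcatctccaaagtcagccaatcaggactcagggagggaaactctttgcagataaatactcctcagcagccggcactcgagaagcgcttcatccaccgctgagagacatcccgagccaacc
Ifit3: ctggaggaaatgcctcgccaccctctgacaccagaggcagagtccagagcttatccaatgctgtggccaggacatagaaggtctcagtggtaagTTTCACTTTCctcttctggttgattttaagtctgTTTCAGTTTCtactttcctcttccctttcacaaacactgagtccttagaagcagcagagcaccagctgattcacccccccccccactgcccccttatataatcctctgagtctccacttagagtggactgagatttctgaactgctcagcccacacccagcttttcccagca
Gfap: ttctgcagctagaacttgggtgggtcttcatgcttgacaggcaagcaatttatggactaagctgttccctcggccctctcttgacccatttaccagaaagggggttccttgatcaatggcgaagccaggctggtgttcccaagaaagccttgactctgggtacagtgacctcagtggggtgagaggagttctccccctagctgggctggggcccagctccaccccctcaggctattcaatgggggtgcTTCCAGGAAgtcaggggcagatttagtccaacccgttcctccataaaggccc
Counted from the start as 0, the kappaB matches run from -97 to -87 in Cxcl2 and from -71 to -61 in Cxcl1, with the same letters. Cxcl10 holds kappaB matches from -159 to -150 and from -104 to -94, and an ISRE core match from -213 to -204. Ifit3 holds 2 ISRE core matches on the reverse strand, and Gfap holds TTCCAGGAA across its start. Of the called cytokine and chemokine genes, 4 had a promoter entry and all 4 held the kappaB consensus, against 10.1% of 12562 promoters of genes tested. Among 11 called interferon-stimulated genes with an entry, 6 (54.5%) held the ISRE core, against 2.82% of those promoters. Uncalled members of these lists were not counted apart. The shares may therefore belong to the lists, and they cannot tie the motifs to the 7-day calls. Of the 203 genes called higher, 143 had an entry: 27 (18.9%) held the kappaB consensus, 10 (6.99%) the ISRE core and 16 (11.2%) TTCNNNGAA, which 6.81% of promoters of genes tested held. A match is a stretch of letters and says nothing on its own of binding, and no test was made.

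Interleukin-6-type cytokines act through the receptor subunit gp130 and the transcription factor STAT3. Of 16 genes of this pathway 5 rose, against 1.29% of all genes, with a median of 0.79. Osmr, the oncostatin M receptor, was at 9.79, 10.30 and 10.34 on the MCAO arrays, against 8.35, 8.70 and 8.39 on the sham arrays (1.66 ± 0.18 (SE), adjusted p = 0.00783), and averaging its probe sets gave 0.62, still called. Socs3, a feedback inhibitor and STAT3 target, was at 10.40, 11.35 and 11.35 on the MCAO arrays, against 9.01, 9.31 and 9.01 on the sham arrays (1.92 ± 0.25 (SE), adjusted p = 0.0158). Sham arrays were close together and MCAO array 1 was the lowest of its group. Cebpd (1.94, adjusted p = 0.0446) and Bcl3 (1.85, adjusted p = 0.0128), which encode transcriptional regulators, also rose, though Cebpd was not called with all probe sets averaged (1.30, adjusted p = 0.0568). Stat3 itself was at 11.15, 11.60 and 11.32 on the MCAO arrays, against 10.87, 10.76 and 10.13 on the sham arrays (adjusted p = 0.192), and Cntfr, the receptor of ciliary neurotrophic factor, at 8.97, 9.07 and 8.54 on the MCAO arrays, against 9.53, 9.85 and 10.16 on the sham arrays, the lowest difference of the list at -0.99 (adjusted p = 0.068). Neither was called.

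Interferon-stimulated genes made the largest called group of the immune lists: 14 of 28 rose, against 1.29% of all genes, none fell, and the median was 0.75. In 21 of the 28 the groups did not overlap upward, against 9.65% of all genes. Oasl2, of the oligoadenylate synthetase family, was at 6.97, 6.88 and 7.01 on the MCAO arrays, against 4.91, 4.52 and 4.95 on the sham arrays (2.16 ± 0.14 (SE), adjusted p = 0.0015). The 3 MCAO arrays were nearly equal. Gbp2, a guanylate-binding protein, was at 8.70, 8.95 and 8.91 on the MCAO arrays, against 7.14, 6.41 and 6.99 on the sham arrays (2.01 ± 0.19 (SE), adjusted p = 0.00616). Iigp1, an immunity-related GTPase, was at 7.45, 7.24 and 6.97 on the MCAO arrays, against 5.09, 5.09 and 5.61 on the sham arrays (1.96 ± 0.19 (SE), adjusted p = 0.00616), with 1.01 and an adjusted p of 0.0578 on a probe set without a shared-sequence mark. Usp18, which removes the ubiquitin-like protein ISG15, was at 7.61, 7.52 and 7.41 on the MCAO arrays, against 5.32, 5.32 and 6.41 on the sham arrays (1.83 ± 0.28 (SE), adjusted p = 0.0237). Sham array 3 was well above the other sham arrays, and 1 of 6 leave-one-out fits called this gene. The other called members were Ifitm3 (1.81), Ifit2 (1.76), Ifit3 (1.5), Ifit1 (1.22), Gbp3 (0.98), Ifi35 (0.98), Irf9 (0.97), Irgm1 (0.92), Irf7 (0.76) and Rtp4 (0.71). Mx1 (0.21), Oas1a (0.35) and Rsad2 (0.15), antiviral genes, and Stat2 (0.0) were not called.

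In antigen presentation by class I molecules, 2 of 11 genes rose and all 11 differences were positive, with a median of 0.55 and no overlap in 9. Over all genes, 1.29% rose and 9.65% had no overlap upward. B2m, the light chain of class I molecules, was at 11.78, 11.58 and 11.70 on the MCAO arrays, against 10.67, 10.20 and 10.70 on the sham arrays (1.17 ± 0.16 (SE), adjusted p = 0.0167). Psmb8, an immunoproteasome subunit, was at 7.48, 7.45 and 7.38 on the MCAO arrays, against 6.02, 5.43 and 6.0 on the sham arrays (1.62 ± 0.17 (SE), adjusted p = 0.00774). Averaging its probe sets gave 0.83, still called. H2-K1 was at 11.38, 11.31 and 11.09 on the MCAO arrays, against 7.69, 10.58 and 10.71 on the sham arrays and was not called (adjusted p = 0.46), with sham array 1 again far below the others. Of 7 complement genes, Serping1, the C1 inhibitor, was at 9.12, 9.77 and 9.47 on the MCAO arrays, against 8.01, 7.61 and 7.96 on the sham arrays (1.59 ± 0.19 (SE), adjusted p = 0.0115), and C1s1, a protease of the C1 complex, was at 5.95, 6.04 and 6.30 on the MCAO arrays, against 5.49, 5.29 and 5.29 on the sham arrays (0.75 ± 0.13 (SE), adjusted p = 0.0432). C1s1 was called in none of the leave-one-out fits. The remaining 5 complement genes were not called, and C3 was not analysed here.

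The list named cytoskeleton, which also holds annexin, S100 and galectin genes, had the most called members of any list but 1. Of its 22 genes 13 rose, against 1.29% of all genes. The median was 1.28, and in 19 the groups did not overlap upward, against 9.65% of all genes. The called members included filament, annexin, S100 and galectin genes. Lgals1, the sugar-binding protein galectin-1, was at 11.21, 11.67 and 11.77 on the MCAO arrays, against 9.68, 9.31 and 9.41 on the sham arrays (2.09 ± 0.18 (SE), adjusted p = 0.00316). S100a10, a calcium-binding protein family member, was at 8.26, 9.08 and 8.73 on the MCAO arrays, against 5.88, 6.11 and 5.61 on the sham arrays (2.82 ± 0.22 (SE), adjusted p = 0.00223), with 1.72 when its probe sets were averaged and 2.0 on one without a shared-sequence mark. Anxa2, a membrane-binding annexin, was at 10.03, 10.69 and 10.06 on the MCAO arrays, against 8.58, 7.39 and 7.94 on the sham arrays (2.29 ± 0.30 (SE), adjusted p = 0.0158). Averaging its probe sets gave 0.76, not called (adjusted p = 0.0952). Vim and Gfap, described above, are members too. The other members that rose were Anxa3 (2.01), Lgals3 (1.86), S100a4 (1.55), Anxa1 (1.46), Tubb6 (1.37), S100a6 (1.34), Actn1 (1.21) and Flna (0.82). Nes, the progenitor filament nestin, was at 8.55, 8.65 and 8.72 on the MCAO arrays, against 7.88, 7.71 and 8.16 on the sham arrays and was not called (adjusted p = 0.0618).

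Of 28 genes of extracellular matrix and proteolysis 6 rose, against 1.29% of all genes, with a median of 0.36. Timp1, a metalloproteinase inhibitor, was at 7.45, 9.24 and 8.70 on the MCAO arrays, against 6.15, 5.83 and 5.98 on the sham arrays (2.48 ± 0.39 (SE), adjusted p = 0.0267). The MCAO arrays were far apart, with array 1 the lowest. Fn1, fibronectin, was at 8.36, 9.52 and 9.24 on the MCAO arrays, against 7.01, 7.28 and 7.39 on the sham arrays (1.81 ± 0.28 (SE), adjusted p = 0.024; 1.10 with its probe sets averaged), and Mmp2, a gelatinase, at 9.31, 9.5 and 8.68 on the MCAO arrays, against 7.94, 6.91 and 7.68 on the sham arrays (1.65 ± 0.30 (SE), adjusted p = 0.0431). Cd44, the hyaluronan receptor, differed by 1.56 (0.87 and adjusted p = 0.172 with its probe sets averaged), Col1a2, a chain of type I collagen, by 1.23, and Vcan, the proteoglycan versican, by 1.11. Timp1, Fn1, Mmp2 and Cd44 each kept their call in 2 of 6 leave-one-out fits, and Col1a2 in 1. The scar proteoglycan and matrix genes Tnc (-0.17), Bcan (-0.05), Ncan (0.31) and Acan (0.15) were not called. Fibroblast markers moved beside these genes on 2 of the arrays: the mean log2 level of 10 markers was 8.90, 9.06 and 7.52 on the MCAO arrays and 8.09, 7.29 and 7.78 on the sham arrays. Only Pdgfra and Col1a2 of them were called. Col3a1 was at 9.51, 10.08 and 7.19 on the MCAO arrays, against 7.24, 6.64 and 7.36 on the sham arrays (adjusted p = 0.337), and Col1a1, a defining marker, at 7.30, 7.58 and 7.10 on the MCAO arrays, against 7.16, 7.75 and 7.22 on the sham arrays. Lum and Dcn, likewise markers, differed by 0.65 and 0.61, with adjusted p of 0.809 and 0.81. On MCAO array 3, where the fibroblast list was lowest of its group, Col1a2 was at 9.79 and Mmp2 at 8.68, the lowest of their group but above the sham arrays. The part of fibroblast RNA in the matrix genes was not tested.

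Markers of oligodendrocyte precursors, cells that carry the receptor PDGFRA and the proteoglycan NG2 and divide in the adult brain, were partly higher after MCAO. Of 13 tested, 5 rose and 8 were not called, with a median of 0.89 and 11 positive differences. The groups did not overlap in 10, all upward, against 9.65% of all genes, and 1.29% of all genes rose. Pdgfra was at 9.71, 10.22 and 9.60 on the MCAO arrays, against 7.69, 7.37 and 7.47 on the sham arrays (2.34 ± 0.18 (SE), adjusted p = 0.00223), and 1.04 with its probe sets averaged, still called. Tnr, tenascin-R, a matrix protein of this lineage, was at 7.63, 8.11 and 7.83 on the MCAO arrays, against 5.64, 5.36 and 5.46 on the sham arrays (2.37 ± 0.15 (SE), adjusted p = 0.0015). Lhfpl3 was at 7.47, 8.78 and 7.75 on the MCAO arrays, against 5.36, 5.43 and 5.78 on the sham arrays (2.48 ± 0.31 (SE), adjusted p = 0.0137; 1.51 with its probe sets averaged) and C1ql1, a secreted C1q-like protein, at 7.71, 7.91 and 7.13 on the MCAO arrays, against 5.83, 5.70 and 5.78 on the sham arrays (1.81 ± 0.20 (SE), adjusted p = 0.00783). In each of these 4 genes the sham arrays were low and close together and every MCAO array was well above them. Bcas1, found in cells on the way to myelination, differed by 1.06 ± 0.18 (SE), adjusted p = 0.0374. Not called were Sox10 at 9.04, 8.97 and 8.80 on the MCAO arrays, against 8.35, 7.56 and 8.21 on the sham arrays (adjusted p = 0.113), Gpr17 at 6.81, 6.57 and 7.38 on the MCAO arrays, against 5.88, 5.93 and 6.27 on the sham arrays (adjusted p = 0.127) and Cspg4, the gene of NG2, at 7.92, 7.98 and 8.51 on the MCAO arrays, against 7.68, 7.13 and 7.36 on the sham arrays (adjusted p = 0.179). The lineage factors Olig2 (0.27) and Olig1 (0.51) and the precursor genes Cacng4 (0.66), Susd5 (-0.06) and Pcdh15 (-0.24) were not called either. Tnr and Pdgfra were called in all 6 leave-one-out fits, and Lhfpl3 and C1ql1 in 4. The mean log2 level of the list was 8.37 to 8.60 on the MCAO arrays and 7.26 to 7.59 on the sham arrays. In sorted bulk RNA, more cells of a type and more RNA of these genes per cell cannot be told apart. Gria4, an AMPA receptor subunit that is in no list, was at 8.64, 7.76 and 7.94 on the MCAO arrays, against 6.58, 6.36 and 6.66 on the sham arrays (1.58 ± 0.22 (SE), adjusted p = 0.0186), with 0.56 and an adjusted p of 0.0731 when its probe sets were averaged.

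Markers of mature oligodendrocytes did not follow the groups. None of 12 was called, the median was -0.22, and 4 differences were positive. The mean log2 level was 8.20, 7.45 and 7.59 on the MCAO arrays and 8.42, 7.13 and 8.08 on the sham arrays, so that sham arrays 1 and 3 and MCAO array 1 were high and sham array 2 was the lowest. Mog, a late myelin gene, was at 5.88, 4.39 and 4.58 on the MCAO arrays, against 6.25, 4.39 and 5.55 on the sham arrays. Sham array 2, low for this list, is also the lowest sham array in 121 of the 203 genes called higher, and without it 35 genes were called. Sham array 3, high for this list, is the lowest sham array in 42 of the 203, and without it 24 genes were called. The part of oligodendrocyte RNA in the 203 calls was not tested.

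**Figure D4:**
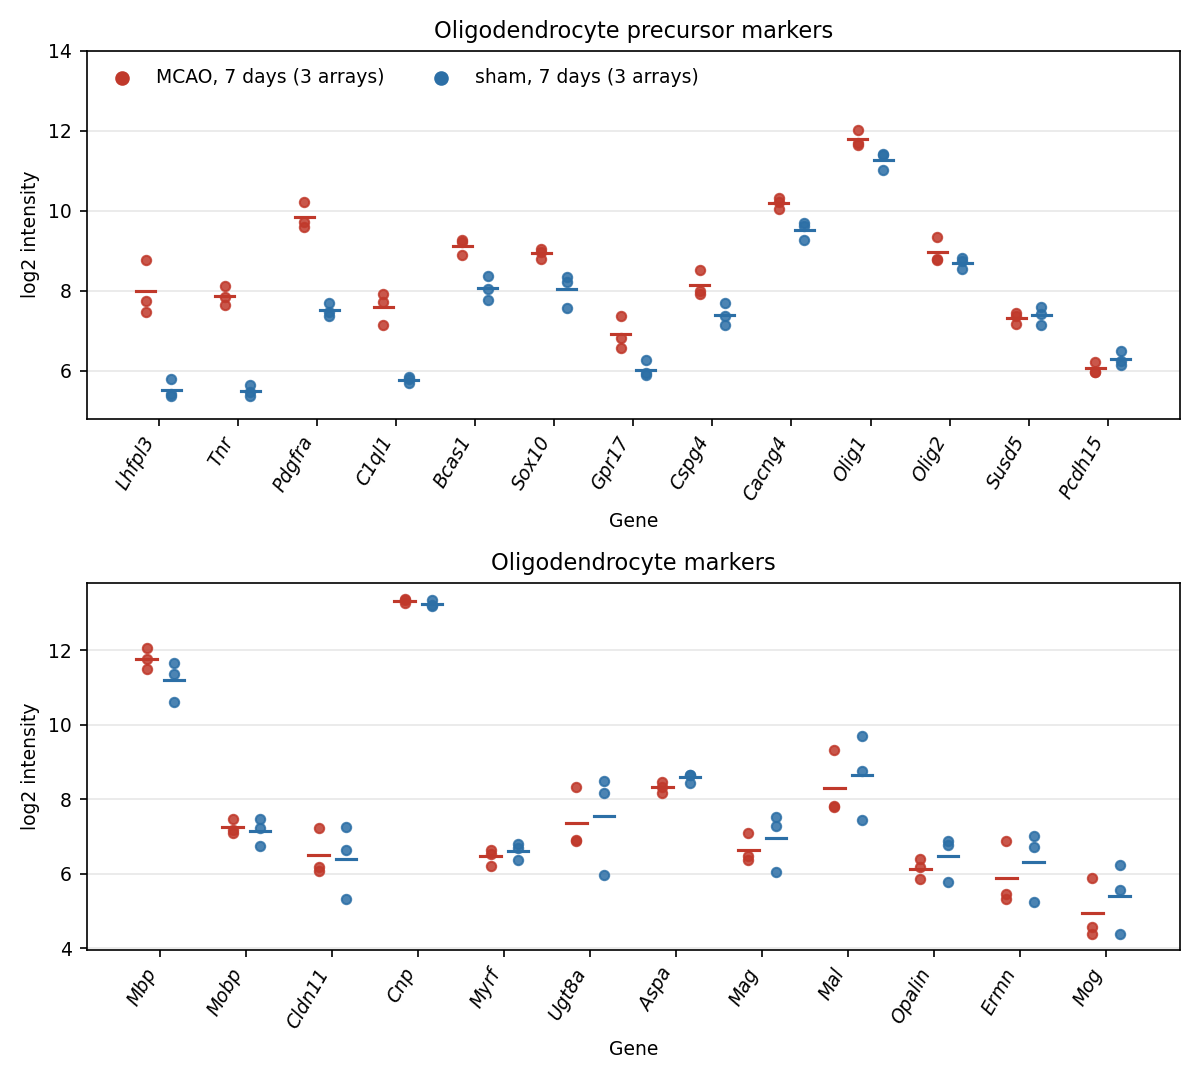
Log2 intensity (y axis) of 13 markers of oligodendrocyte precursors (top) and 12 markers of oligodendrocytes (bottom), 1 dot per array with a bar at the mean, MCAO in red and sham in blue. The groups stand apart for Lhfpl3, Tnr, Pdgfra and C1ql1, while for myelin genes such as Mog, Mal and Ugt8a they overlap over a wide range.

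Other cell types left few called markers. None of 14 microglia and macrophage genes was called (median 0.11). Their mean level was 6.93, 6.28 and 5.85 on the MCAO arrays and 6.52, 6.12 and 6.16 on the sham arrays, the highest and the lowest arrays both being MCAO. Tmem119 and P2ry12, defining genes of microglia, were at 5.93, 6.34 and 5.93 and 6.27, 6.52 and 5.61 on the MCAO arrays, against 6.32, 5.93 and 5.86 and 6.54, 6.60 and 6.41 on the sham arrays. None of 11 neutrophil and monocyte, 9 T and NK cell, 15 neuron, 12 endothelial, 10 ependymal and 2 erythroid markers was called, with medians of 0.01, -0.09, 0.19, -0.02, 0.18 and -0.18. Ependymal markers had mean levels of 7.34, 6.59 and 6.62 on the MCAO arrays and 7.44, 5.97 and 6.44 on the sham arrays, with array 1 the highest of both groups. Defining genes of the other types were Rbfox3 of neurons (0.47, adjusted p = 0.337), Cldn5 of endothelium (-0.15), Cd3d of T cells (-0.22), Foxj1 of ependyma (0.26) and Pdgfrb of pericytes (0.0). Of 9 pericyte and smooth muscle genes Tagln, an actin-binding protein of smooth muscle, rose by 1.60 (adjusted p = 0.0405), and kept its call in 1 of 6 leave-one-out fits. It was at 7.32, 8.28 and 7.55 on the MCAO arrays, against 6.60, 5.88 and 5.88 on the sham arrays, while Acta2, smooth muscle actin, was not called (0.47).

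Of 29 cell cycle genes 4 rose, 28 differences were positive and the median was 0.75. In 17 the groups did not overlap upward, against 9.65% of all genes, and 1.29% of all genes rose. Ccnd1, the cyclin of entry into the cycle, was at 8.94, 9.83 and 9.15 on the MCAO arrays, against 7.32, 7.99 and 7.58 on the sham arrays (1.67 ± 0.25 (SE), adjusted p = 0.024). Cdc20, which switches on the anaphase-promoting complex, was at 9.51, 9.26 and 8.68 on the MCAO arrays, against 7.87, 6.85 and 7.76 on the sham arrays (1.66 ± 0.30 (SE), adjusted p = 0.0463). Its call was lost in each leave-one-out fit, with probe sets averaged (1.04, adjusted p = 0.161) and without shared probe sets (1.01, adjusted p = 0.394). Ccnb2, a mitotic cyclin, was at 7.33, 7.19 and 7.08 on the MCAO arrays, against 6.34, 5.39 and 6.07 on the sham arrays (1.27 ± 0.23 (SE), adjusted p = 0.0434), and Mcm4, a subunit of the replicative helicase, at 9.83, 9.68 and 9.61 on the MCAO arrays, against 8.92, 8.77 and 8.77 on the sham arrays (0.88 ± 0.12 (SE), adjusted p = 0.0158). Of 6 leave-one-out fits, 1 called Ccnb2, 2 called Ccnd1 and 4 called Mcm4. Among the uncalled were Mki67 at 9.44, 8.49 and 8.51 on the MCAO arrays, against 7.99, 6.61 and 7.61 on the sham arrays (adjusted p = 0.178) and Top2a at 9.76, 8.79 and 8.48 on the MCAO arrays, against 8.49, 7.01 and 8.01 on the sham arrays (adjusted p = 0.35), both proliferation markers. The mean level of the list was 8.10, 7.69 and 7.42 on the MCAO arrays and 7.22, 6.60 and 7.05 on the sham arrays, lowest on sham array 2. The precursor list was at 8.37, 8.60 and 8.58 on the MCAO arrays and 7.54, 7.26 and 7.59 on the sham arrays, and which cells carried the cycle genes was not tested. None of 24 gliogenesis and progenitor genes was called (median 0.18). Sox4, a transcription factor of immature cells, had the largest difference among them, at 11.06, 11.53 and 10.91 on the MCAO arrays, against 10.15, 10.32 and 10.43 on the sham arrays (adjusted p = 0.0672).

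A few stress genes rose. Of 15 immediate early genes 2 rose, against 1.29% of all genes, and the median was 0.65. There was no overlap upward in 13, against 9.65% of all genes. Ier3, an early response gene of cell survival, was at 9.75, 10.87 and 10.60 on the MCAO arrays, against 8.34, 7.38 and 7.53 on the sham arrays (2.66 ± 0.33 (SE), adjusted p = 0.0137), and Egr2, a zinc finger factor, at 8.47, 9.40 and 9.0 on the MCAO arrays, against 7.59, 7.15 and 7.89 on the sham arrays (1.41 ± 0.26 (SE), adjusted p = 0.0483). Fos was at 13.85, 13.92 and 13.97 on the MCAO arrays, against 13.80, 13.67 and 13.74 on the sham arrays and was not called. Of 20 heat shock and unfolded protein genes, Hspb1, a small heat shock protein, was at 9.68, 10.32 and 10.12 on the MCAO arrays, against 8.49, 7.35 and 7.85 on the sham arrays (2.14 ± 0.29 (SE), adjusted p = 0.0164), and Chac1, a glutathione-degrading enzyme, at 7.66, 8.26 and 7.64 on the MCAO arrays, against 6.38, 6.02 and 6.97 on the sham arrays (1.40 ± 0.26 (SE), adjusted p = 0.0491). Chac1 lost its call in each leave-one-out fit, and Egr2 kept its call in 1 of 6. Of 18 genes of glycolysis and hypoxia, Hk2, an inducible hexokinase, was at 7.84, 8.30 and 8.08 on the MCAO arrays, against 6.79, 6.67 and 6.73 on the sham arrays (1.34 ± 0.14 (SE), adjusted p = 0.00774) and Adm, the vasoactive peptide adrenomedullin, differed by 1.17 ± 0.17 (SE), adjusted p = 0.0218. The other 16 were not called and the median was -0.05. No gene of 14 of oxidative stress was called (median -0.06). Hmox1, heme oxygenase 1, was at 6.19, 6.46 and 6.61 on the MCAO arrays, against 6.51, 6.44 and 6.57 on the sham arrays, and Gpx1, a glutathione peroxidase, at 10.16, 11.06 and 10.83 on the MCAO arrays, against 9.79, 9.98 and 10.16 on the sham arrays (adjusted p = 0.283).

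The genes of normal astrocyte work were not called at 7 days. Of 29 homeostatic genes none was called, their median was 0.03 and differences ran from -0.52 to 0.39. The glutamate transporter gene Slc1a2 differed by 0.01, the potassium channel gene Kcnj10 by 0.02, and the water channel gene Aqp4 by 0.39. At the ends of the range, Slco1c1, a thyroid hormone transporter, was at 13.28, 12.94 and 12.94 on the MCAO arrays, against 13.62, 13.68 and 13.41 on the sham arrays (adjusted p = 0.192) and Hepacam, a cell adhesion protein, at 11.95, 12.76 and 11.79 on the MCAO arrays, against 12.23, 12.87 and 12.79 on the sham arrays. None of 20 cholesterol biosynthesis genes was called, but all 20 differences were negative, with a median of -0.38 against -0.01 over all genes. In 12 the groups did not overlap downward, against 6.68% of all genes. Mvd, of the mevalonate pathway, was at 9.78, 9.62 and 9.22 on the MCAO arrays, against 9.93, 10.44 and 10.26 on the sham arrays (adjusted p = 0.197), and Fdft1, which makes squalene, at 12.40, 12.23 and 11.84 on the MCAO arrays, against 12.68, 12.90 and 12.79 on the sham arrays (adjusted p = 0.152). None of 17 genes of synapse formation and elimination (median -0.01) and none of 22 of lysosomes and lipid handling (median -0.01) was called. Thbs2, a synapse-promoting thrombospondin, was at 6.38, 7.80 and 7.75 on the MCAO arrays, against 6.25, 5.43 and 6.19 on the sham arrays (adjusted p = 0.217), Sparc, a matricellular protein, at 12.06, 12.39 and 13.01 on the MCAO arrays, against 11.81, 10.88 and 12.02 on the sham arrays, and Apod, a lipid carrier, at 9.93, 10.003 and 8.49 on the MCAO arrays, against 8.73, 7.11 and 8.43 on the sham arrays (adjusted p = 0.362).

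Of the 467 tested genes in the 31 lists 69 were called, all higher, so most called genes were in none. From those outside the lists, the following were chosen after their values were seen. Gap43, a growth cone protein, was at 7.90, 9.17 and 8.41 on the MCAO arrays, against 6.02, 5.93 and 5.75 on the sham arrays (2.59 ± 0.28 (SE), adjusted p = 0.00787), with Basp1 (1.30), Marcks (1.10) and Dpysl3 (1.24), likewise proteins of growing processes, also called. NF-kappaB family and regulator genes Nfkbiz (1.92) and Relb (1.02) rose beside Tnfaip3. Rgs16 (1.92 ± 0.22 (SE), adjusted p = 0.0102) and Rgs4 (2.12), both regulators of G-protein signalling, rose beside S1pr3. Sema3d, a guidance molecule, was at 6.13, 6.82 and 6.51 on the MCAO arrays, against 4.46, 4.46 and 4.81 on the sham arrays (1.91 ± 0.19 (SE), adjusted p = 0.00671) and kept its call in all 6 leave-one-out fits. Hpgd (2.29), which breaks down prostaglandins, and Pla2g4a (1.65), which frees arachidonic acid, rose beside Ptgs2. Cdkn1a (1.52), an inhibitor of the cell cycle, rose as well.

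Most genes called higher at 7 days were called higher at 1 day too. At 1 day, fitted on its own 9 arrays, 2290 genes were called higher (14.6%) and 2890 lower (18.4%), a comparison with more arrays. Of the 203 genes higher at 7 days, 146 (71.9%) were also called higher at 1 day, which is 6.38% of the 1-day list, 57 were not called and 0 were lower. Both genes lower at 7 days were lower at 1 day. The median difference of the 203 was 1.47 at 1 day, 1.28 at 3 days and 1.34 at 7 days, though they were chosen on the last. The 3-day comparison, on its own 6 arrays, called 0 genes in limma (1451 at an unadjusted p under 0.05, 9.23%). Its standard errors were 1.12 for S1pr3 and 0.81 for Vim, against 0.32 and 0.27 at 7 days. The count of 0 therefore does not show that effects were absent at 3 days. S1pr3 differed by 5.51 at 1 day and 4.08 at 7 days, Tgm1 by 5.79 and 3.82, and Timp1 by 5.26 and 2.48. Cxcl2 differed by 2.89 and 4.0, Tnfaip3 by 0.85 and 2.92, and Matn4 by 0.70 and 2.67. For none of these genes was the change between days called in the test over 30 arrays given below. The adjusted p there ran from 0.09 for Matn4 to 0.999 for Cxcl2. Of 29 homeostatic genes, 21 were called lower at 1 day (median -0.48) and 0 at 7 days (median 0.03). Of 20 cholesterol genes, 13 were called lower at 1 day (median -0.69) and 0 at 7 days, where the median was still -0.38 and each of the 20 differences was below 0. Counts of calls from fits of 9 and 6 arrays do not by themselves show a change between days. Fdft1 differed by -0.64 on both days, with a limma adjusted p of 0.0153 at 1 day and 0.152 at 7 days. Hmox1 differed by 3.80 at 1 day and -0.09 at 7 days. The median of the cell cycle list was -0.06 at 1 day, 1.29 at 3 days and 0.75 at 7 days. At 1 day 6 of its 29 genes were called higher and 1 lower. The median of precursor markers was -0.05 at 1 day, 0.53 at 3 days and 0.89 at 7 days.

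**Figure D5:**
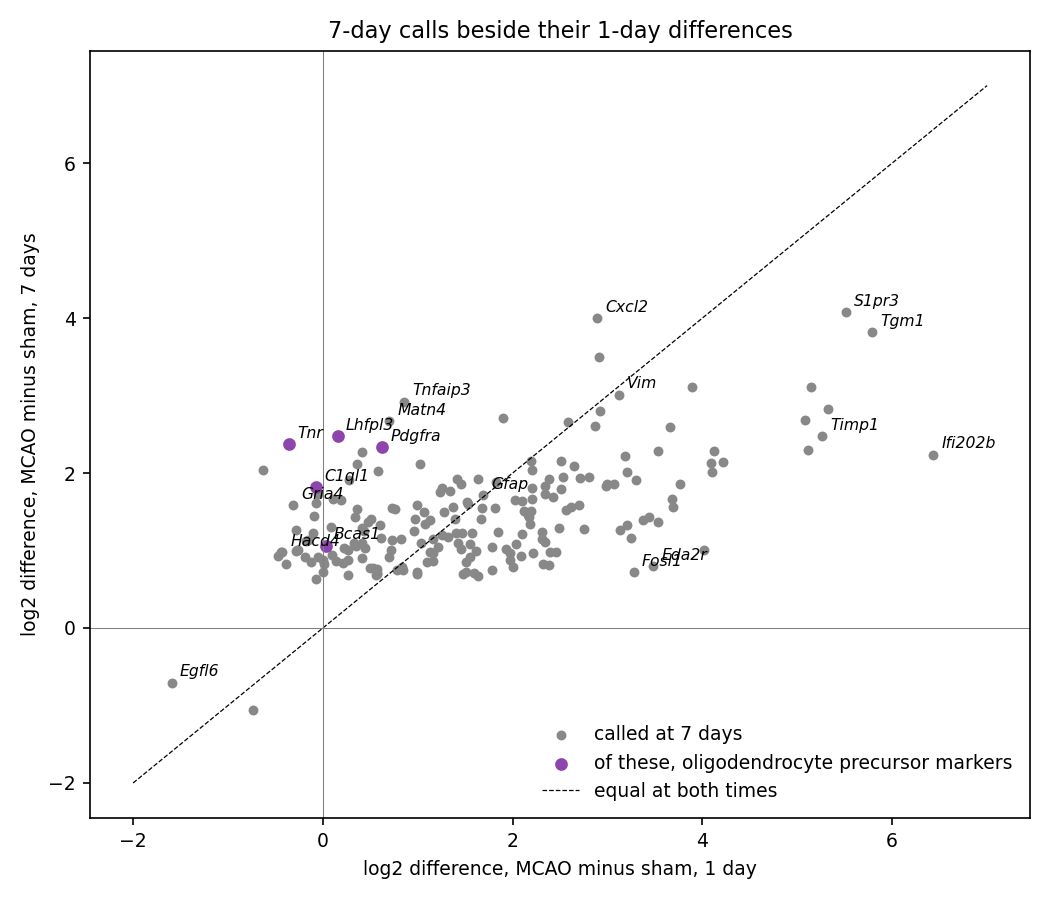
Log2 difference of MCAO minus sham at 1 day (x axis) and at 7 days (y axis) for the 205 genes called at 7 days, with oligodendrocyte precursor markers in purple and a dashed line of equal differences. Genes such as Tgm1, S1pr3 and Timp1 lie far below the line. Tnr, Lhfpl3, C1ql1, Gria4 and Matn4 lie above it.

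The difference between the 7-day and the 1-day effect was tested as an interaction over the 30 arrays. It was called in 56 genes, 10 positive (0.0636%) and 46 negative (0.293%). This balance rested on the fit: with the arrays of the 2 days alone 814 were positive (5.18%) and 723 negative (4.6%). With replicate number within day as a block, on the MCAO and sham arrays of all days alone, 206 were positive and 209 negative. Of the genes called at 7 days, 3 had a called difference towards a larger effect at 7 days: C1ql1 (1.89 ± 0.27 (SE), adjusted p = 0.000578), Gria4 (1.89 ± 0.42 (SE), adjusted p = 0.038) and Hacd4, an enzyme of fatty acid elongation (1.41 ± 0.32 (SE), adjusted p = 0.0428). In 2 the called difference was towards a smaller effect at 7 days, Eda2r, a receptor of the tumour necrosis factor family (-2.68 ± 0.53 (SE), adjusted p = 0.0189), and Fosl1, a factor of the AP-1 family (-2.56 ± 0.48 (SE), adjusted p = 0.0131). C1ql1 differed by 1.81 at 7 days and -0.08 at 1 day, and Fosl1 by 0.72 and 3.28. The 7-day call itself was kept in 1 of 6 leave-one-out fits for Fosl1 and in 0 for Eda2r. With the arrays of the 2 days alone, the called differences among the 7-day calls were 29 positive and 34 negative. Lcn2, not called at 7 days, had a smaller effect there too (-5.58 ± 1.08 (SE), adjusted p = 0.0178). When each 7-day array was left out in turn, C1ql1 was called in all 6 fits, Fosl1 in 4, Lcn2 in 2, Gria4 and Eda2r in 1 each and Hacd4 in 0 (adjusted p of 0.084 to 0.167). With the arrays of the 2 days alone, 1537 genes were called. In that fit the difference was positive and called for 6 of 13 precursor markers, C1ql1 (adjusted p = 0.000162), Cacng4 (1.78, adjusted p = 0.000699), Lhfpl3 (2.32, adjusted p = 0.00334), Tnr (2.73, adjusted p = 0.00546), Pdgfra (1.71, adjusted p = 0.0185) and Cspg4 (1.02, adjusted p = 0.015), and the other 7 were not called, among them Gpr17 (adjusted p = 0.0669), Bcas1 (adjusted p = 0.076) and Sox10 (adjusted p = 0.155). Cacng4 and Cspg4 were not called higher at 7 days. Their differences were larger than their 7-day effects, so both were on average below sham at 1 day. Of the 13 markers, 1 was called lower at 1 day. Over 30 arrays only C1ql1 of the 13 was called, and the adjusted p was 0.202 for Lhfpl3, 0.375 for Tnr, 0.821 for Pdgfra, 0.219 for Cspg4 and 0.117 for Cacng4. The count over 30 arrays dropped to 17 on leaving out MCAO array 1, likewise to 17 on leaving out MCAO array 3, to 20 for sham array 1, to 17 for sham array 2 and to 15 for sham array 3. The days also differed in the brightness of their arrays: the 99th percentile of intensity was 5655 to 6045 on the 7-day arrays and 7092 to 7975 on the 1-day MCAO and sham arrays, and day and brightness cannot be told apart. The 7-day and 3-day effects gave 0 called differences in limma (274 genes at an unadjusted p under 0.05, 1.74%). The 3-day arrays were mixed in brightness. Their 99th percentile was 8228 on MCAO array 3 and 8269 on sham array 3, and 5681 to 6745 on the others. The count of 0 therefore does not show that the 2 effects were alike.

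The arrays of a group were not equal in the size of these changes. Among the 203 genes called higher, MCAO array 2 was the highest MCAO array in 139, array 3 in 47 and array 1 in 17, while array 1 was the lowest in 132. Sham array 1 was the highest sham array in 107. The median standard deviation of these genes was 0.275 over the MCAO arrays and 0.192 over the sham arrays, against 0.170 and 0.147 over all genes. Pan-reactive genes showed this order plainly: their median deviation from the sham mean was 1.31, 2.42 and 2.22 on MCAO arrays 1, 2 and 3. Interferon-stimulated genes did not follow it, at 0.78, 0.74 and 0.87.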

How the data were processed

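RNA of sorted astrocytes was measured on Affymetrix arrays. The deposited table holds 1 linear intensity per probe set and array, from 9 to 35553, normalised with RMA by the authors, per the submitters' processing notes (version not stated). Scanner files were not used, so probe summaries rest on the authors' processing. log2 of the deposited intensity was taken. Each of 18193 genes was represented by its brightest probe set by mean over 30 arrays, among those with 1 symbol (34945 of 45037, with 932 carrying several and 9160 none), and 15726 genes at log2 5 or more on at least 3 of 30 arrays were tested. Where a name pairs with several probe sets, a shared-sequence mark means the suffix that the array's maker gives to sets matching several transcripts.

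The 6 arrays of 7 days were fitted alone with limma 3.58.1 in R 4.3.3 (2-sided moderated test, 4 residual and 4.10 prior degrees of freedom). Calls were made at an adjusted p under 0.05 (Benjamini-Hochberg, 15726 genes). "Rose", "fell", "higher" and "lower" are used of called genes. Differences between days were interaction contrasts over 30 arrays. The fit was tested on simulated data. Precision is limited by the number of arrays.

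Genes were named by rule: the 15 largest rises, up to 10 falls, check genes, up to 4 called members per list (or the largest uncalled), the first gene of each marker list and genes whose effect differed between days; other genes are given as list members or named as chosen later. The members and lists were chosen with earlier results of these data known. Alternatives covered the samples fitted, variance model, normalization, filter, probe set, threshold, replicate number and leaving out each array.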

Additional observations from a re-analysis of the deposited data

Results flagged for a closer look

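Of the 56 genes whose 7-day effect of MCAO differed from its 1-day effect in the interaction test over 30 arrays, 8 are named above. The difference (7-day minus 1-day, log2) was 1.89 for C1ql1, 1.89 for Gria4 and 1.41 for Hacd4, and it was -2.68 for Eda2r, -2.56 for Fosl1, -5.58 for Lcn2, -3.88 for Hmox1 and -5.07 for Steap4. With replicate number within day as a block, on the MCAO and sham arrays alone, Eda2r (-2.49, adjusted p = 0.0783) and Lcn2 (-5.57, adjusted p = 0.0601) were no longer called. C1ql1, Hmox1 and Steap4 were called in all 6 fits that left out a 7-day array, Fosl1 in 4, Lcn2 in 2, Gria4 and Eda2r in 1 each and Hacd4 in 0.

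Probe sets that no comparison above uses also carried signal. In a fit over all probe sets on the 6 arrays, 4 of 5963 with no gene symbol were called higher (0.0671%), and 6 of 728 with several symbols (0.824%), beside 143 of 29039 with 1 symbol (0.492%). They are not named here.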

How the results depend on the processing

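Of the alternatives, none turned the direction of a called result. The 205 calls became 4 with all 30 arrays in the fit (list genes 69 to 2, named genes 58 to 3), 35 at an adjusted p under 0.01 and 350 with array weights (331 higher, 19 lower). Leaving out each array gave 24 to 163 calls, 17 to 57 called list genes and 18 to 45 called named genes. 21 genes were called in all 6 of these fits and 26 in none. Calls numbered 148 after quantile normalization, 150 with probe sets averaged, 173 without a filter, 176 without shared probe sets, and 204 to 209 under the 5 other choices of centring, filter, probe set and variance model. For the difference between the 7-day and 1-day effects, the 56 calls became 1537 with the arrays of the 2 days alone (814 positive, 723 negative), 63 after quantile normalization and 58 without a filter, and 15 to 43 when an array was left out. The 7-day minus 3-day count was 0 in every fit run. Where a count changed, the cause was not tested.

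Titles share replicate numbers between groups. Arrays numbered 1 and those numbered 2 deviated together (correlations of 0.37 and 0.31, the highest of all pairs, against -0.37 and -0.3 when crossed). Those numbered 3 did not (0.0042, and MCAO array 3 correlated best with sham array 1, at 0.081). The numbers were not taken as pairs in the main fit. With the replicate number as a block, 188 genes were called (185 higher, 3 lower, 156 shared). For the 7-day minus 1-day difference 415 were called (206 positive, 209 negative), with replicate number within day as a block. That fit also left out the arrays of groups other than MCAO and sham, so the effects of both changes cannot be told apart.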
